A study of Rattus norvegicus with 421 samples.

Results

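Solute carriers are the membrane proteins that move nutrients, bile acids, ions, metals and metabolites into, out of and within cells without spending ATP directly. Their genes carry the prefix Slc and are numbered by subfamily, and those of the organic anion transporting polypeptides are written Slco. The set described here holds the Slc genes that were measured at a mean of at least 6 on the log2 scale over all arrays of rat liver, leaving out Slc10a1 and Slc25a20. It has 209 genes in 48 subfamilies, read by 244 probe sets, out of 238 Slc genes with 298 probe sets at any level and 10411 genes named on the array in all. The name and the mean level selected the members, and the level is given as a description. Just inside the limit lay Slco6b1 at 6.01 and Slc15a2 at 6.02, and just outside it a second probe set of Slc22a23 at 5.98 and Slc6a17 at 5.95. By name the set also takes in Slc7a6os and Slc4a1ap, which are not themselves carriers. A gene with several probe sets was described by the one with the highest mean.

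The animals were rats of the Wistar Hanover line (Crl:WI[Gl/BRL/Han]IGS BR), all male and 8 to 10 weeks old, dosed by gavage, and each array holds the liver RNA of 1 animal. There were 293 arrays from treated animals in 98 groups, 1 for each compound and time point, and 128 from vehicle animals in 38 groups, of which 30 received corn oil, 86 carboxymethylcellulose and 12 physiological saline. Most groups have 3 animals, chosen from 5 on liver histopathology, so the spread between arrays is that between selected animals; DES on day 1 has 2 animals, and 6 vehicle groups have 4 or 6. Compounds of one study block share vehicle animals, so their comparisons are not independent of each other. Times are days of treatment (up to 1, 3, 7 and 14), except for Aap, taken at 6, 12, 24 and 48 hours. Against carboxymethylcellulose stood ETH (Ethionine, 200 mg/kg), DHEA (Dehydroepiandrosterone, 600 mg/kg), Wy (Wy-14643, 60 mg/kg), DES (Diethyl-stilbestrol, 10 mg/kg), PBO (Piperonyl-butoxide, 1200 mg/kg), AA (Acetamide, 3000 mg/kg), AB1 (Aflatoxin B1, 0.24 mg/kg), TAA (Thioacetamid, 19.2 mg/kg), NPip (N-Nitrosopiperidine, 20 mg/kg), NNM (N-Nitrososmorpholine, 3.5 mg/kg), PB (Phenobarbital, 80 mg/kg), AlAl (Allyl alcohol, 36 mg/kg), Clon (Clonidine, 0.1 mg/kg), CFX (Cefuroxime, 250 mg/kg), Ibup (Ibuprofen, 94 mg/kg), Nif (Nifedipine, 3 mg/kg), Praz (Prazosin, 1 mg/kg) and Prop (Propranolol, 40 mg/kg). Against corn oil stood CPA (Cyproterone acetate, 100 mg/kg), CIDB (C.I Direct Black, 146 mg/kg), 3-MC (3-Methylcholanthrene, 25 mg/kg), MDA (Methylendianiline, 50 mg/kg) and DCB (dichlorobenzene, 300 mg/kg), and against saline Aap (Acetaminophen, 4250 mg/kg). The compounds that enter the counts but are not described singly were 2-AAF (2-Acetylaminofluorene, 1.2 mg/kg), MPy (Methapyrilene HCl, 60 mg/kg), Mcarb (Methylcarbamate, 400 mg/kg) and NNK (a tobacco nitrosamine, 20 mg/kg) against carboxymethylcellulose, and 2-NF (2-Nitrofluorene, 44 mg/kg) and DMN (Dimethylnitrosamine, 4 mg/kg) against corn oil. Hepatocyte markers averaged 12.5 to 13.3 on every array, and 7 arrays also held transcripts of muscle or pancreas. Without those 7 arrays, 12 of the 611 calls described next were lost. Of the calls given below with their values, those of Slc25a25 in Aap at 6 hours and of Slc25a4 in Aap at 6 hours and in NPip on day 7 were among them.

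The hepatocyte takes up bile acids, drugs and hormones from the blood through the Slco and SLC22 carriers, amino acids through SLC1, SLC6, SLC7 and SLC38, and glucose through Slc2a2. Inside the cell, the SLC25 carriers link cytosol and mitochondria, and SLC30, SLC39 and SLC40 move zinc and iron. Many of these genes are known to be set by nuclear receptors, by amino acid supply or by metal load.

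Every treated group was set against the vehicle group named in its label. A gene was called where limma gave an adjusted p below 0.05 and the change was at least 1.5-fold. Levels are log2 signals, and changes are differences of log2 group means, treated minus vehicle, with the standard error (SE) of the fit. The SE rests on a spread of each gene that is pooled over all groups. It depends mainly on the number of animals and does not follow the spread of the animals compared. Over 20482 pairs of a carrier and a treated group, 246 were called higher and 365 lower, that is 1.2% and 1.78%. Over the 8861 genes that pass the same level, 1.26% of pairs were called higher and 0.908% lower. Lower calls thus made up 59.7% of the calls among the carriers and 42% among all genes. Over all genes the share of pairs called lower rose with the level. It was 0.163% for genes with a mean of 6 to 7 and 2.67% for those with a mean of at least 10. Among the carriers of these levels the shares were 0% and 4.93%. For a mean of 7 to 8 they were 0.765% in carriers and 0.373% in all genes. For a mean of 8 to 10 they were 2.49% and 0.932%. The part of the level in the difference was not tested. Of the 209 carriers, 95 (45.5%) were called in at least 1 treated group, against 43.3% of all genes. Of the 611 calls, 380 were kept when each replicate was left out in turn, and 79 were lost when only the compared groups were fitted.

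**Figure D1:**
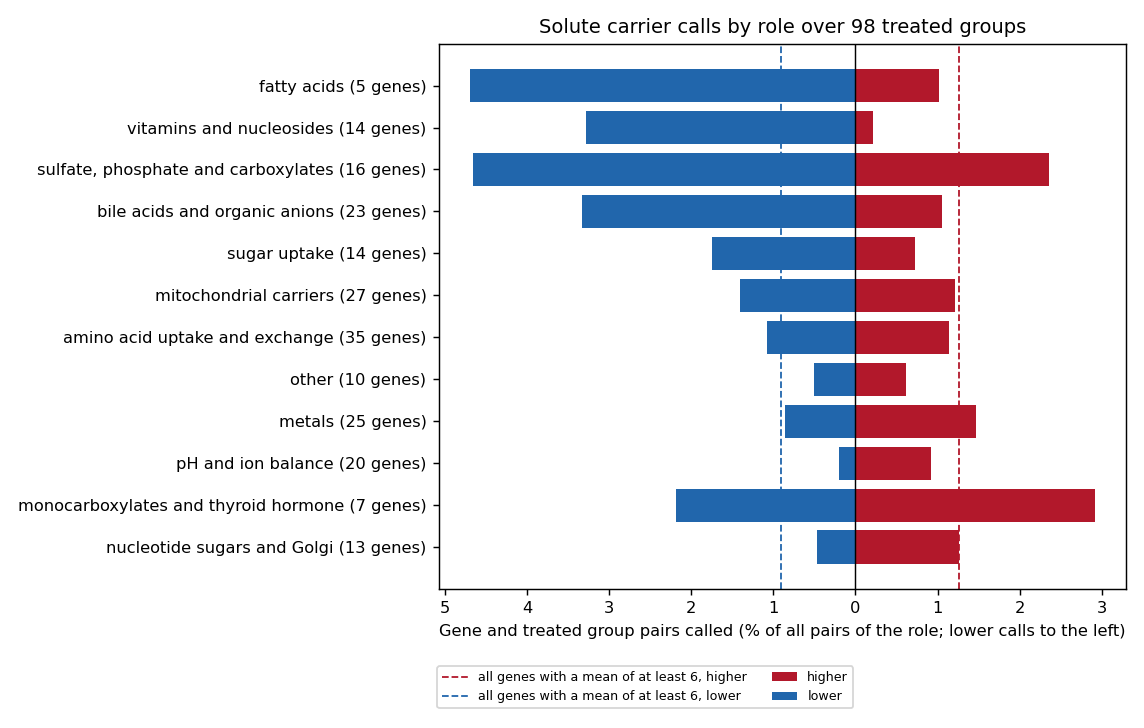
Share of pairs of a gene and a treated group called higher (bars to the right) or lower (bars to the left), in percent of all pairs of a role over 98 treated groups; dashed lines give the shares over all 8861 genes of the same level, 1.26% higher and 0.908% lower. Carriers of fatty acids, of sulfate, phosphate and carboxylates, of bile acids and organic anions, and of vitamins and nucleosides reach 3.28% to 4.69% on the lower side. A role takes in whole subfamilies, so Slc5a6, the carrier of biotin and pantothenate, is counted under sugar uptake.

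Calls gathered in few treatments. ETH on day 3 had 17 carriers higher and 26 lower (20.6% of carriers, where 17.3% of all genes were called), Aap at 48 hours 12 and 28 (19.1%, all genes 13.1%) and Aap at 24 hours 12 and 25 (17.7%, all genes 14.6%). DHEA followed with 8 and 18 on day 7 (12.4%, all genes 7.25%) and 7 and 14 on day 14 (10%, all genes 5.88%). ETH had 5 and 20 on day 14 (12%, all genes 9.90%) and 7 and 15 on day 1 (10.5%, all genes 11.4%). Aap at 6 hours had 14 and 8 (10.5%, all genes 6.61%), with rises in the majority. 3-MC on day 14 and CPA on day 14 each had 4 higher and 9 lower (6.22%), where 2.00% and 3.16% of all genes were called. In 36 treated groups no carrier was called, and AlAl, CFX, DCB and Praz had none at any time, compounds in which at most 0.271% of all genes were called in any group. The share of carriers called exceeded that of all genes in 48 of the 98 treated groups. It did so in 26 of the 28 groups with at least 10 carriers called, a choice by the carriers' own calls that favours a larger share.

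**Figure D2:**
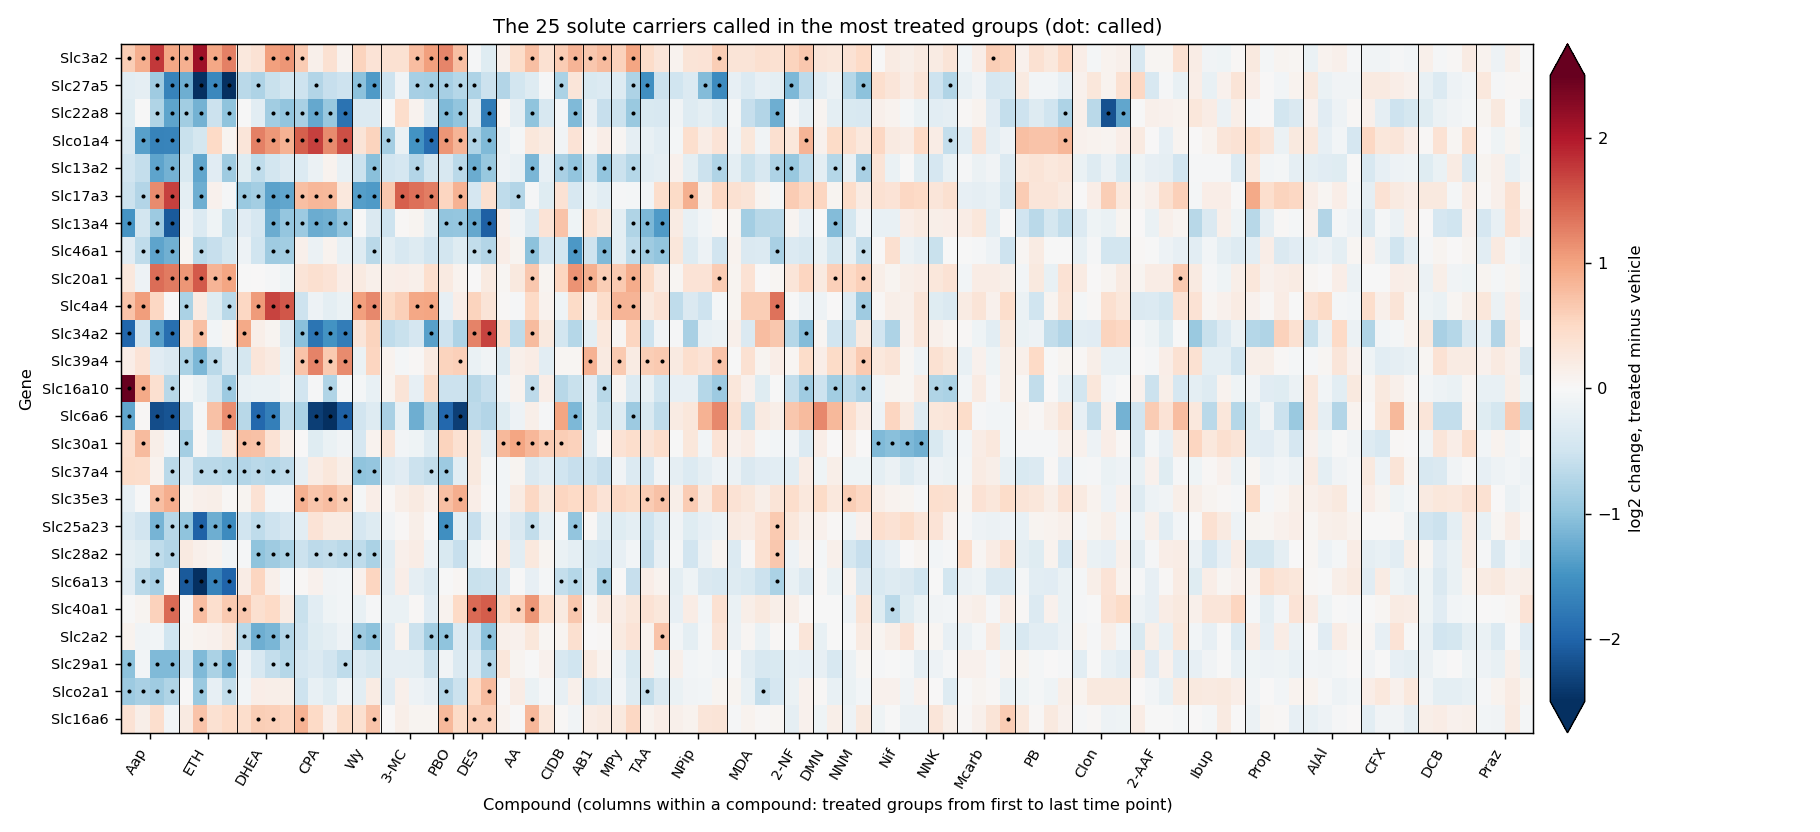
Log2 change against vehicle (colour, red higher and blue lower, saturated beyond 2.5) of the 25 carriers called in the most treated groups (rows) in all 98 treated groups (columns, ordered by compound and then by time); a dot marks a call. Slc3a2 is called in 24 groups, always higher, and Slc27a5 in 23, always lower.

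Amino acid carriers. The 35 genes of SLC1, SLC3, SLC6, SLC7, SLC36 and SLC38 gave 39 higher and 37 lower calls (1.14% and 1.08% of pairs, near the 1.26% and 0.908% of all genes), spread over 13 genes. Slc3a2, the heavy subunit that carries the light chains of the amino acid exchangers to the plasma membrane, accounted for 24 of the 39 rises, in 13 compounds, and 17 of its 24 calls were kept with every replicate left out. On day 3 of ETH the treated animals measured 12.29, 12.23 and 12.82, and the 4 vehicle animals lay between 10.23 and 10.42. The groups did not overlap, and the rise was 2.12 ± 0.14 (adjusted p = 8.84e-37). At 24 hours of Aap the values were 12.46, 11.99 and 11.71 against 10.27, 10.33 and 10.24, a rise of 1.77 ± 0.15. Further rises were 1.26 ± 0.15 in ETH on day 14, 1.22 ± 0.14 in PBO on day 1, 1.10 ± 0.15 in DHEA on day 14 and 1.03 ± 0.15 in 3-MC on day 14. Of its light chains, Slc7a5, which carries large neutral amino acids, was called in 1 group, Aap at 24 hours, with 9.36, 8.34 and 8.35 against 7.42, 7.67 and 7.69 (1.09 ± 0.13, adjusted p = 5.31e-14). In ETH on day 3, where Slc3a2 stood highest, the change of Slc7a5 was 0.09 ± 0.12 (adjusted p = 0.575). Slc7a7, a light chain for cationic amino acids, was called in Aap at 48 hours (0.69 ± 0.13) and in AA on day 7.

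The strongest single rise of the whole set was that of Slc38a2, which takes up small neutral amino acids and is known to respond to amino acid shortage. At 6 hours of Aap its level was 11.43, 10.59 and 11.21 in treated animals and 7.63, 7.70 and 8.58 in vehicle animals, a rise of 3.11 ± 0.24 (adjusted p = 1.67e-28). At 12 hours the groups overlapped (9.11, 10.62 and 9.57 against 9.78, 9.28 and 8.56, adjusted p = 0.168), and at 24 and 48 hours it rose by 0.99 ± 0.24 and 1.15 ± 0.24. In ETH on day 14 the same gene was lower (-0.95 ± 0.24). Slc16a10, which moves aromatic amino acids and belongs to the monocarboxylate subfamily, was also highest at that time. It measured 10.07, 10.15 and 9.94 at 6 hours of Aap against 7.03, 7.24 and 6.98, a rise of 2.97 ± 0.24 (adjusted p = 1.28e-25), and at 48 hours it was lower than vehicle (-0.69 ± 0.24). In all it was called lower in 10 compounds, Aap among them, but 2 of its 13 calls were kept with every replicate left out, the 6-hour rise and the fall in ETH on day 14 (-0.91 ± 0.24). Treated replicate 3 of the 6-hour group carried muscle transcripts, with a mean of the muscle markers of 9.78 against 5.76 to 5.96 in its vehicle animals. Without the arrays that held another tissue, the changes of Slc38a2 and Slc16a10 at 6 hours were 3.04 and 3.03.

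Slc6a9, a glycine carrier, moved later in Aap. At 6 hours it was not called (9.10, 9.07 and 9.26 against 9.11, 9.19 and 9.49, adjusted p = 0.791), and at 24 hours it had 11.91, 11.42 and 11.59 against 8.94, 9.05 and 8.99. The rise was 2.64 ± 0.18 (adjusted p = 3.65e-34). At 48 hours the treated animals spread widely (10.96, 11.99 and 9.80), all above vehicle. ETH raised the gene by 1.37 ± 0.17 on day 1 and by 1.02 ± 0.17 on day 3. Slc6a8, the creatine carrier, was called in AB1 on day 7 (8.85, 7.70 and 8.23 against 6.98 to 7.29 in 6 vehicle animals; 1.12 ± 0.10, adjusted p = 1.58e-20) and in CIDB on day 7 (1.08 ± 0.12), and in no other group. Of the 2 further probe sets of Slc6a9, 1 was called in 2 groups, both shared with the 5 of the first, and the other in 10, with 4 shared.

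**Figure D3:**
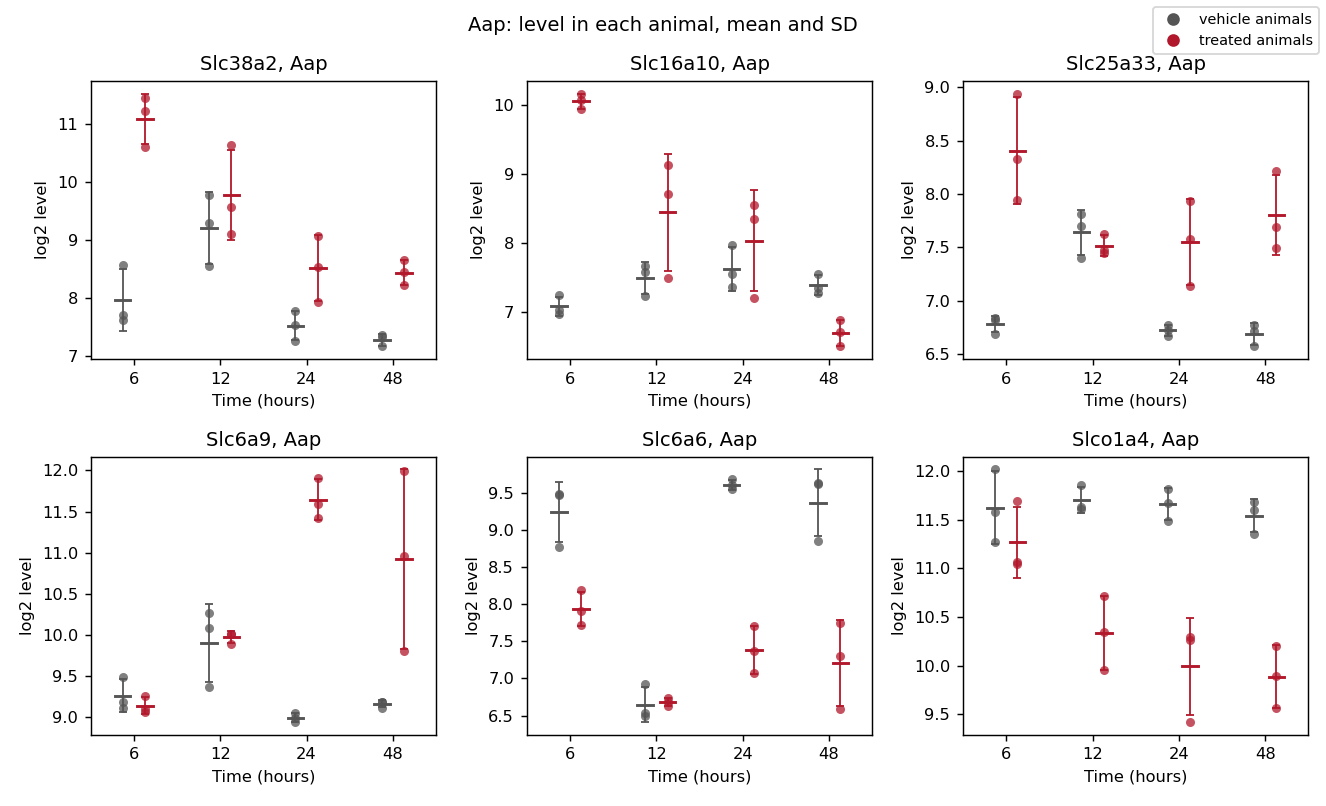
Log2 level of 6 carriers in each saline vehicle animal (grey) and each Aap animal (red) at 6, 12, 24 and 48 hours, with the mean and SD of each group of 3. Slc38a2 and Slc16a10 are highest at 6 hours, Slc6a9 at 24 hours, and the 12-hour vehicle mean lies apart from the other vehicle means in Slc6a6, Slc38a2, Slc6a9 and Slc25a33.

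Among amino acid carriers that fell, Slc6a6, the taurine carrier, was called lower in 12 groups. In CPA it measured 6.50, 6.68 and 6.39 on day 7 against 8.63, 9.42 and 9.11 (-2.53 ± 0.39, adjusted p = 1.17e-07), and its change was -2.35 ± 0.39 on day 3 and -2.04 ± 0.39 on day 14. It was also lower in PBO (-1.96 ± 0.36 on day 1 and -2.35 ± 0.36 on day 3), in DHEA (-1.95 ± 0.33 on day 3 and -1.70 ± 0.33 on day 7) and in Aap (-1.31 ± 0.39 at 6 hours, -2.23 ± 0.39 at 24 hours and -2.16 ± 0.39 at 48 hours). A second probe set of the gene was called in 14 groups, 10 of them shared with the 13 of the first and in the same direction. In ETH on day 14 the gene was called higher (10.31, 10.65 and 11.31 against 9.88, 8.81 and 10.10; 1.16 ± 0.39), a call that was lost in 2 of the settings with a replicate left out. The level of Slc6a6 also varied among vehicle groups more than that of any other carrier. The saline animals at 12 hours measured 6.53, 6.92 and 6.49, and those at 24 hours 9.54, 9.60 and 9.68. At 12 hours the Aap animals measured 6.68, 6.74 and 6.63 and overlapped their vehicle animals.

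Slc6a13, a GABA and taurine carrier of the hepatocyte, fell in all 4 groups of ETH. On day 3 it measured 8.44, 8.26 and 8.27 against 11.10 to 11.35 in 4 vehicle animals (-2.86 ± 0.17, adjusted p = 2.74e-43), and on days 1, 7 and 14 the changes were -2.10 ± 0.17, -1.65 ± 0.18 and -2.00 ± 0.18. On day 7 replicate 3 stood at 10.39, close to its vehicle animals, where the other two had 8.75 and 9.02. Slc38a3 and Slc38a4, neutral amino acid carriers of the sinusoidal membrane, were lower on day 3 of ETH (-0.84 ± 0.11 and -1.10 ± 0.12). Slc38a3 was also lower in Wy on day 3 (-0.82 ± 0.10).

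RefSeq promoter windows (GRCr8, 250 bases before to 50 after the start) were at hand for 179 of the 209 carriers. A single window was read for each carrier. The comparison counts every window, also of genes not measured in the liver, so the sets are unlike, and the differences in share were not tested. The core of the antioxidant response element (TGACNNNGC, both strands) was found in 18.4% of these and in 12.1% of all 33469 windows, and the core of the amino acid response element (TGATGNAA) in 2.79% and 3.98%. The E-box (CACGTG) was found in 11.2% and 6.42%, and the xenobiotic response core (GCGTG) in 46.4% and 29.7%. The direct repeat of nuclear receptor sites spaced by 1 base was in none of the carriers' windows and in 0.0538% of all. The stretches upstream of the start of Slc38a2, with the largest rise, and of Slc6a6, with 12 groups lower, are shown with their match to the antioxidant core in capitals. They lie at chr7:129742620-129742739 (minus strand) and at chr4:125752382-125752501 (plus strand), and the matches begin at positions -50 and -101 from the start.
Slc38a2: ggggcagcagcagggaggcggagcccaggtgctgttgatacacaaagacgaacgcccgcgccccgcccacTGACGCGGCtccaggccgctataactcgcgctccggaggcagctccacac
Slc6a6: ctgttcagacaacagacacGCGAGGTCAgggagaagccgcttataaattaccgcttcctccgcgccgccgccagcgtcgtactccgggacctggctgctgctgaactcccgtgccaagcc
The windows of Slc3a2, Slc27a5, Slco1a4 and Slc17a3, each called in more groups than these 2 genes, held no match to the antioxidant core. A match describes letters in a window and does not show that a factor binds there.

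Bile acid and organic anion carriers. The 23 genes of SLC10, SLC22 and SLCO gave 24 higher and 75 lower calls (1.06% and 3.33% of pairs), with 12 genes called. Of the 24 rises, 9 were those of Slc22a5, a carnitine carrier that is counted here with SLC22. Slc22a8, an organic anion carrier for drugs and conjugated steroids, was called lower in 21 groups of 12 compounds and higher in none, and 16 calls were kept with every replicate left out. Its largest fall occurred in Clon on day 7, where 8 of the 8861 genes were called in all and no other carrier was. The animals measured 9.26, 9.44 and 9.50 against 11.53, 11.75 and 11.43 (-2.17 ± 0.22, adjusted p = 3.67e-15), and on day 14 they measured 10.42, 10.24 and 9.82 against 11.24, 11.46 and 11.68 (-1.30 ± 0.22, adjusted p = 0.000103). On day 1 the change was 0.13 ± 0.22 and on day 3 it was -0.68 ± 0.22 (adjusted p = 0.419), with replicate 3 of the treated animals at 9.89. The same day-7 vehicle animals served CFX, Ibup, Nif, Praz and Prop, in which the change of Slc22a8 lay between -0.52 and -0.01 and was not called. Slc22a8 was also lower in CPA on day 14 (9.47, 9.70 and 9.46 against 11.51, 11.16 and 11.49, change -1.84 ± 0.22), in DES on day 3 (-1.75 ± 0.21) and in Aap at 48 hours (-1.31 ± 0.22).

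Slco1a4, the organic anion transporter known as a target of the receptors CAR and PXR, was called in both directions, 11 times higher and 9 times lower. CPA raised it at every time. The 12 treated animals lay between 12.88 and 13.38, all above the 12 vehicle animals at 11.22 to 11.97, and the rise was smallest on day 7 (1.19 ± 0.22) and largest on day 3 (1.71 ± 0.22). PBO raised it by 1.11 ± 0.20 on day 1 and DHEA by 1.25 ± 0.19 on day 3. In PB all treated animals lay above all vehicle animals at each of the 4 times with changes of 0.71 to 0.84, but only day 14 was called (0.84 ± 0.22, adjusted p = 0.0151), and 2 of the settings with a replicate left out lost that call. In 3-MC the gene was lower on day 1 (-0.86 ± 0.22), on day 7 (10.70, 10.14 and 9.69 against 11.36, 11.76 and 11.91, adjusted p = 1.29e-08) and on day 14 (10.15, 10.30 and 9.83 against 11.71, 12.16 and 12.15, change -1.91 ± 0.22, adjusted p = 6.47e-14). In Aap its changes were -1.36 ± 0.22, -1.66 ± 0.22 and -1.66 ± 0.22 at 12, 24 and 48 hours. A second probe set was called in 23 groups, 18 of them shared with the 20 of the first, and none in the opposite direction.

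Other Slco members fell in ETH. Slco2b1 measured 9.12, 8.75 and 9.02 on day 3 against 10.35 to 10.74 (-1.59 ± 0.12, adjusted p = 7.18e-30), and 8.75, 8.31 and 8.38 on day 14 against 10.28, 10.91 and 10.45 (-2.07 ± 0.13). A second probe set of Slco2b1 was called in 10 groups, 4 of them shared with the 6 of the first. Slco1b2, an uptake carrier of bile acids and drugs, and Slco2a1, a prostaglandin carrier, were lower on day 3 (-0.96 ± 0.23 and -0.93 ± 0.13). Slco1a1, a carrier of bile acids and steroid conjugates, was lower on day 1 of ETH (-1.08 ± 0.14) and at 24 hours of Aap (-1.55 ± 0.15). Slco2a1 was higher in DES on day 3 (12.85, 12.95 and 12.84 against 11.94 to 12.25; 0.80 ± 0.13). Second probe sets of Slco1b2 and Slco2a1 were called in 7 and 20 groups where the first were called in 5 and 10, with 4 and 7 shared. Slc22a7, an organic anion carrier of the sinusoidal membrane, was lower at 24 hours of Aap (-1.11 ± 0.08) and on day 3 of ETH (-0.97 ± 0.08). Slc22a18 was called in ETH and in no other compound, lowest on day 14 (-1.11 ± 0.07, adjusted p = 3.51e-38).

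Slc22a5, the carnitine carrier, gave 9 of the 12 rises of SLC22 and no fall, with 8 of the 9 calls kept with every replicate left out. On day 7 of DHEA it measured 9.42, 9.47 and 9.86 against 7.52 to 7.88 in 6 vehicle animals (1.86 ± 0.11, adjusted p = 1.18e-39). Wy raised it by 1.41 ± 0.13 on day 1 and 1.42 ± 0.11 on day 3, ETH by 1.01 ± 0.12 on day 3 and Aap by 0.88 ± 0.13 at 6 hours.

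ATP-driven pumps export bile acids and conjugates from the hepatocyte into bile or back into blood. Of 8 measured, Abcc3 was called higher in 20 groups and lower in none, and Abcc2 higher in 19 and lower in 7. Abcb1a was called higher in 11 and lower in none. Abcg5 was called higher in 9 and lower in 2, Abcg8 in 7 and 3, and Abcb4 in 1 and 1. Abcc6 was called lower in 15 groups and Abcb11, the bile salt export pump, in 4, neither ever higher. In CPA on day 14, where Slco1a4 rose, Abcc3 rose by 2.87, and on day 3 of ETH the changes of Abcc6 and Abcb11 were -1.39 and -0.83.

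Fatty acid carriers. Slc27a5, the bile acyl-CoA synthetase of the liver, which joins bile acids and long fatty acids to coenzyme A, gave all 23 lower calls of the 5 SLC27 genes, over 15 compounds, 14 of them kept with every replicate left out. On day 3 of ETH it stood at 7.93, 8.18 and 7.42 against 12.10 to 12.33 in 4 vehicle animals. This change of -4.36 ± 0.24 (adjusted p = 3.31e-48) was the largest change of any carrier in any group. The change was -1.22 ± 0.24 on day 1 and -2.87 ± 0.25 on day 14. On day 7 replicates 1 and 2 measured 9.27 and 9.64 and replicate 3 measured 12.26, which lay above its vehicle animals (11.97, 12.14 and 11.88), the same animal that stood apart in Slc6a13. Further falls were found in Aap at 48 hours (-1.66 ± 0.25), NPip on day 14 (-1.57 ± 0.25), TAA on day 3 (-1.53 ± 0.22) and Wy on day 3 (-1.42 ± 0.22). Slc27a2, a very long chain acyl-CoA synthetase, was called higher in 5 groups, all of DHEA or Wy, and all 5 calls were kept with every replicate left out. It measured 13.58, 13.59 and 13.55 on day 7 of DHEA against 12.48 to 12.70 (0.97 ± 0.07, adjusted p = 2.44e-28).

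**Figure D4:**
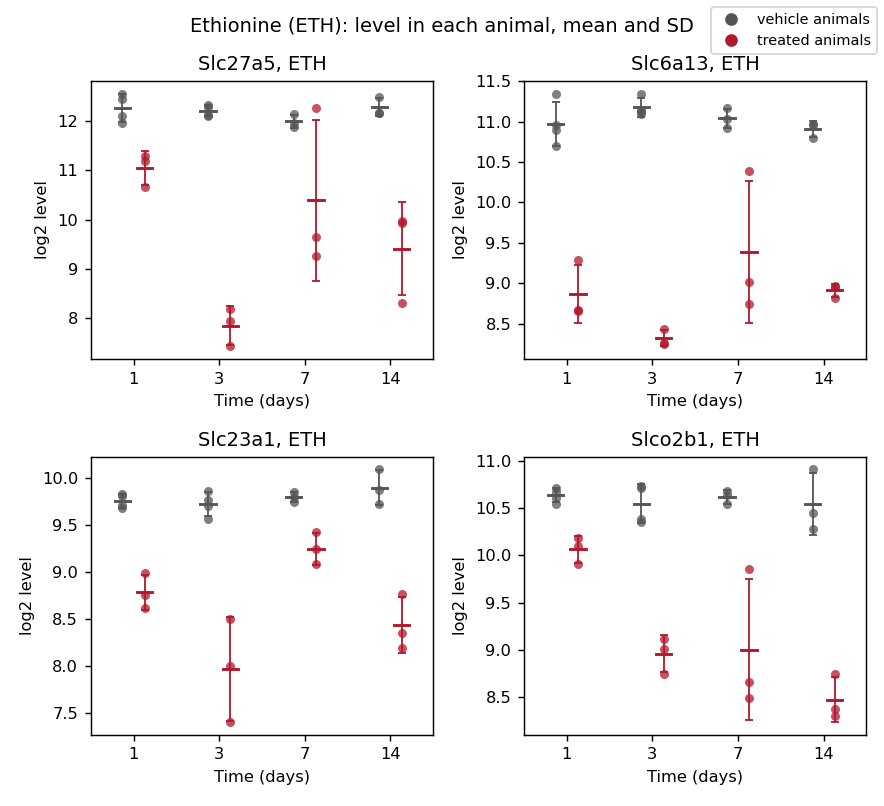
Log2 level of Slc27a5, Slc6a13, Slc23a1 and Slco2b1 in each vehicle animal (grey) and each ETH animal (red) on days 1, 3, 7 and 14, with the mean and SD of each group. On day 3 all treated animals lie below all vehicle animals in each panel, and on day 7 a single treated animal stands near the vehicle level of Slc27a5 at 12.26.

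Carriers of sulfate, phosphate and carboxylates. These 16 genes gave 37 higher and 73 lower calls (2.36% and 4.66% of pairs). The 4 SLC13 genes, sodium-coupled carriers of citrate and sulfate, were lower in 46 pairs (11.7%) and higher in none. Slc13a2, a carrier of citrate and succinate, was called lower in 20 groups of 16 compounds, and 11 of these calls were kept with every replicate left out. It was lowest against vehicle in Aap at 24 hours (6.43, 7.57 and 7.49 against 8.70, 8.20 and 8.56, change -1.33 ± 0.22) and in ETH on day 3 (-1.30 ± 0.21). Slc13a4, a sulfate carrier, fell in 17 groups. It measured 8.21, 8.06 and 8.33 on day 3 of DES against 9.95 to 10.49 (-2.04 ± 0.25, adjusted p = 1.43e-12), and at 48 hours of Aap the treated animals spread from 7.63 to 9.42 against 10.38, 10.61 and 10.83 (-2.09 ± 0.27). It was also lower in TAA on day 7 (-1.41 ± 0.23) and DHEA on day 7 (-1.25 ± 0.23). Slc13a3, which carries dicarboxylates, was lower on day 3 of ETH (-1.21 ± 0.15) and on day 14 of 3-MC (-0.87 ± 0.16).

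Of the phosphate carriers, Slc20a1 was called higher in 16 groups of 10 compounds and lower in none. It measured 9.47, 10.11 and 9.66 on day 3 of ETH against 8.11 to 8.39 (1.54 ± 0.14, adjusted p = 1.12e-22), and it rose by 1.40 ± 0.15 in Aap at 24 hours and 1.13 ± 0.15 in CIDB on day 7. Slc34a2 fell in 9 groups, among them Aap at 6 hours (7.23, 7.48 and 6.99 against 9.73, 8.55 and 9.39, change -1.99 ± 0.34), CPA on day 3 (-1.82 ± 0.34) and CPA on day 14 (-1.72 ± 0.34), and rose in 5, most in DES on day 3 (11.30, 11.03 and 10.22 against 8.76 to 9.55; 1.68 ± 0.32). Of the 14 calls of Slc34a2, 6 were kept with every replicate left out.

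Slc17a3, an organic anion and urate carrier, was called higher in 10 groups and lower in 9. It was higher in 3-MC on day 3 (10.93, 11.07 and 11.17 against 9.74, 9.78 and 9.15, adjusted p = 3.5e-07) and on day 14 (1.28 ± 0.23), and in Aap at 48 hours, where the treated animals ranged from 10.34 to 12.13 (1.71 ± 0.23). It was lower in DHEA on day 7 (-1.34 ± 0.20), in Wy on day 3 (9.16, 7.91 and 8.41 against 9.69 to 10.04, change -1.42 ± 0.20) and in ETH on day 3 (-1.23 ± 0.22). Its relative Slc17a1 was higher in 3-MC too, by 1.14 ± 0.15 on day 3 and 1.07 ± 0.15 on day 14 (10.97, 11.35 and 10.96 against 9.91, 10.22 and 9.94).

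Sugar and sugar phosphate carriers. Roles were given by whole subfamily. The 14 genes of SLC2, SLC5, SLC37, SLC45 and SLC50 gave 10 higher and 24 lower calls (0.729% and 1.75% of pairs). Of the 10 rises, 5 were those of Slc5a6, a vitamin carrier that is counted here with SLC5. Slc2a2, the glucose carrier of the hepatocyte, was lower in 9 groups, with 10.41, 10.49 and 10.41 on day 3 of DHEA against 11.46 to 11.85 (-1.22 ± 0.13, adjusted p = 3.7e-17), and it was lower in Wy (-1.03 ± 0.13) and DES (-1.04 ± 0.14) on the same day. DHEA and Wy were set against the same 6 vehicle animals there. In TAA on day 7 Slc2a2 rose by 0.72 ± 0.13. Slc37a4, which brings glucose 6-phosphate into the endoplasmic reticulum, was called lower in 12 groups, lowest in Wy on day 1 (-1.01 ± 0.14), and higher in none. Slc5a1, a sodium-coupled glucose carrier that lies low in the vehicle liver, was called in DES alone among the 30 compounds. It measured 7.81 and 7.33 on day 1 against 6.03 to 6.27, and 9.06, 8.86 and 8.42 on day 3 against 6.18 to 6.41, a rise of 2.52 ± 0.09 (adjusted p = 1.28e-77). Slc5a6, the carrier of biotin and pantothenate, rose by 0.95 ± 0.10 in CIDB on day 7 and by 0.93 ± 0.10 in ETH on day 3.

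Vitamin and nucleoside carriers. These 14 genes gave 3 higher and 45 lower calls (0.219% and 3.28% of pairs). The vitamin carrier Slc5a6, called higher in 5 groups and lower in none, is not among them, since its subfamily is counted with the sugar carriers. Slc46a1, the proton-coupled folate carrier, was lower in 17 groups of 12 compounds and higher in none, 13 of them kept with every replicate left out. On day 7 of CIDB it measured 8.41, 8.36 and 8.45 against 9.83, 10.02 and 9.68 (-1.43 ± 0.18, adjusted p = 4.01e-12), and it was also lower in Aap at 24 hours (-1.32 ± 0.18), AB1 on day 7 (-1.10 ± 0.15) and AA on day 7 (-1.03 ± 0.15). Slc23a1, the ascorbate carrier, was lower in ETH on day 3 (8.50, 7.40 and 8.00 against 9.56 to 9.86, change -1.76 ± 0.12, adjusted p = 3.61e-34). The nucleoside carriers Slc29a1 and Slc28a2 were called lower in 10 groups each. The changes of Slc29a1 were -1.10 ± 0.16 in Aap at 24 hours and -1.15 ± 0.16 in ETH on day 14, and Slc28a2 measured 7.91, 7.55 and 7.87 in DHEA on day 3 against 8.55 to 8.89 in 6 vehicle animals.

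Metal carriers. The 25 genes gave 36 higher and 21 lower calls (1.47% and 0.857% of pairs, near the shares of all genes). Slc30a1, which exports zinc and is itself known to be raised by zinc, moved in opposite directions in AA and Nif, at every time point of both. In AA it rose by 0.80 ± 0.20 on day 1, 0.99 ± 0.17 on day 3, 0.84 ± 0.17 on day 7, when the groups overlapped, and 0.63 ± 0.20 on day 14, when the call was lost in 4 of the settings with a replicate left out. In Nif it measured 6.52, 7.06 and 7.53 on day 1 against 8.05, 8.31 and 8.09, and 6.79, 6.68 and 6.81 on day 14 against 8.09, 8.22 and 7.56. The changes were -1.11 ± 0.20, -1.05 ± 0.20, -1.13 ± 0.20 and -1.19 ± 0.20 on days 1, 3, 7 and 14 (adjusted p between 7.68e-07 and 1.89e-05), and all 4 were kept with every replicate left out. The other compounds set against the same vehicle animals, CFX, Clon, Ibup, Praz and Prop, had no call of this gene, with changes from -0.41 in Prop on day 14 to 0.54 in Ibup on day 1. The vehicle animals of AA were shared with AB1, DHEA, Mcarb, MPy, TAA and Wy. Of these DHEA was called too, with 0.75 ± 0.20 on day 1 and 0.72 ± 0.17 on day 3, and the changes of the others lay between -0.42 in Wy on day 1 and 0.44 in TAA on day 7. Those vehicle groups lay low for Slc30a1, with means of 7.41 on day 3 and 7.35 on day 7 and a median of 7.91 over all vehicle groups, and the part of the vehicle level in the rises was not tested. The gene was also called higher in Aap at 12 hours (0.80) and CIDB on day 3 (0.61) and lower in ETH on day 1 (-0.85). Vehicle group means of Slc30a1 themselves ranged from 7.13 to 8.36.

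The window of Slc30a1 before its start is shown because the gene moved at every time point of AA and Nif. It lies at chr13:106021879-106022018 (GRCr8, plus strand), with matches to the metal response core (TGCACNC or TGCGCNC, both strands) in capitals.
Slc30a1: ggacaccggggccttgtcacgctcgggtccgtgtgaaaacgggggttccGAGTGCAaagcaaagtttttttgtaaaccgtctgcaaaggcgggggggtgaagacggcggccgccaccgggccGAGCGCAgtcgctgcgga
The 2 matches lie at positions -91 and -18 from the start. Of all promoter windows, 24.2% hold a match and 6.36% hold at least 2, and the motif was searched after the values of Slc30a1 had been seen.

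**Figure D5:**
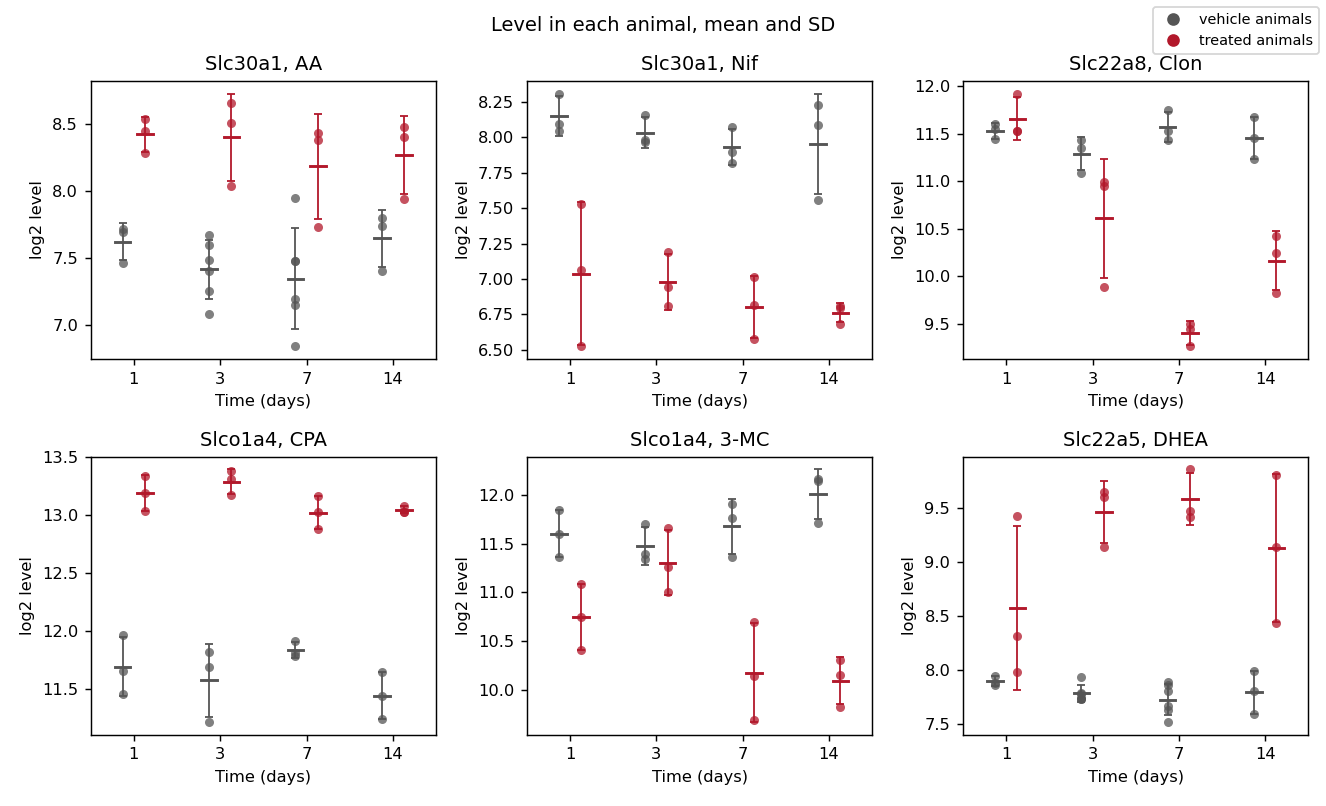
Log2 level in each vehicle animal (grey) and each treated animal (red), with the mean and SD of each group, for Slc30a1 in AA and Nif, Slc22a8 in Clon, Slco1a4 in CPA and 3-MC, and Slc22a5 in DHEA, by day of treatment. The mean of Slc30a1 lies above that of vehicle in AA and below it in Nif at all 4 times, and all Clon animals lie below all vehicle animals in Slc22a8 on days 7 and 14.

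Slc39a4, a zinc importer, was called higher in 11 groups, led by CPA on day 3 (11.22, 10.89 and 11.26 against 9.79, 10.25 and 9.58; 1.25 ± 0.18), and lower in 3 groups, all of ETH (-1.13 ± 0.16 on day 3). Slc39a8, an importer of zinc and manganese, was called lower in 8 groups and higher in none, lowest in DHEA on day 7 (-0.99 ± 0.10). Slc40a1, the iron exporter ferroportin, rose in 9 groups. In DES it measured 11.23, 11.42 and 11.32 on day 3 against 9.69 to 9.94 (1.51 ± 0.15, adjusted p = 7.38e-18), and it rose by 1.41 ± 0.16 in Aap at 48 hours and 1.10 ± 0.14 in AA on day 7. Of its other 2 probe sets, 1 was called in 5 groups and the other in 7, with 4 and 6 of these shared with the 10 of the first. Macrophages are known to be rich in ferroportin. Of 9 macrophage markers, 7 were called higher in AA on day 7, where their mean was 10.3 to 10.6 in treated and 8.85 to 9.42 in vehicle animals, and in Aap at 48 hours 4 were higher and 1 lower (10.4 to 10.7 against 9.35 to 9.60). In DES on day 3 none was called (9.15 to 9.43 against 9.09 to 9.38). The part of macrophages in the rises of Slc40a1 was not tested in any of these groups, and in whole liver fewer or more cells of a type and less or more RNA per cell cannot be told apart. The peptide and histidine carrier Slc15a3 was called higher in 6 groups, highest in ETH on day 3 (8.16, 7.99 and 8.18 against 6.57 to 6.82; 1.42 ± 0.14). In that group 8 of the 9 macrophage markers were higher (mean 10.6 to 10.9 against 9.09 to 9.38), and their part was not tested. Slc48a1, a haem carrier, rose by 1.40 ± 0.11 in Aap at 24 hours and by 0.91 ± 0.11 in PBO on day 3. At 6 hours of Aap the magnesium carrier family member Slc41a3 rose by 1.36 ± 0.12, and Slc49a4 rose by 1.51 ± 0.11.

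Mitochondrial carriers. SLC25 is the largest subfamily, and its 27 genes gave 32 higher and 37 lower calls (1.21% and 1.4% of pairs, the higher side near that of all genes), with 17 genes called. Slc25a23, a calcium-dependent carrier of ATP and phosphate, was lower in 10 groups. ETH lowered it at all 4 times, to 8.63, 8.12 and 7.69 on day 3 against 10.04 to 10.35 (-2.03 ± 0.12, adjusted p = 3.06e-42), and it was lower in PBO on day 1 too (-1.53 ± 0.12). The paralogues Slc25a12 and Slc25a13 exchange aspartate for glutamate, and Slc25a13 is the liver form. Slc25a12 was called higher in 7 groups, among them all 4 of ETH (0.90 ± 0.12 on day 1 and 1.10 ± 0.13 on day 14), and Slc25a13 lower in 7 groups, lowest in DES on day 3 (-0.84 ± 0.13). Slc25a42, a coenzyme A carrier, was higher in 6 groups, all of DHEA or Wy, with 10.66, 10.70 and 10.65 on day 7 of DHEA against 9.32 to 9.43 (1.29 ± 0.10, adjusted p = 2.52e-28). Slc25a1, the citrate carrier, was lower in ETH on day 3 (-1.05 ± 0.10).

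Among the mitochondrial carriers called at 6 hours of Aap were the following. Slc25a33, a pyrimidine nucleotide carrier, measured 8.94, 8.33 and 7.95 against 6.82, 6.84 and 6.70 (1.62 ± 0.13, adjusted p = 2.8e-25). Slc25a15, the ornithine carrier of the urea cycle, measured 13.03, 13.08 and 12.98 against 11.64, 11.58 and 11.55 (1.44 ± 0.09, adjusted p = 4.07e-39). Slc25a22, a glutamate carrier, rose by 1.12 ± 0.12, and Slc25a29, which carries basic amino acids, by 1.09 ± 0.09. Every one of these was also called without the array that held muscle transcripts, as was the fall of Slc25a30 (-1.87 ± 0.60, and -1.89 without it), a call lost without vehicle replicate 2 or 3, with changes between -2.56 and -1.3 over the replicates left out. Slc25a25, a calcium-dependent carrier of ATP and phosphate, was called higher there (1.21 ± 0.41), but not without that array (1.04), and the call was lost with 4 of the 6 replicates left out, with changes from 1.04 to 1.55. Slc25a4, the ADP and ATP carrier of muscle and heart, was also called there, at 8.56, 8.32 and 11.002 against 8.11, 8.12 and 8.29, and in NPip on day 7, at 8.11, 8.27 and 10.58 against 7.87, 7.90 and 7.93. Replicate 3 of both groups held muscle transcripts, and without it the changes were 0.26 and 0.29 and were not called. In Aap at 48 hours, where muscle markers were at 5.70 to 5.86 against 5.86 to 5.90 in vehicle, Slc25a4 rose by 0.89 ± 0.19.

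Ion, monocarboxylate and Golgi carriers. Slc4a4, the sodium bicarbonate cotransporter, gave 12 of the 18 rises of the 20 carriers of pH and ion balance, which were called higher in 0.918% and lower in 0.204% of pairs. A second probe set of Slc4a4 was called in 4 groups where the first was called in 15, with 3 shared. By the first, Slc4a4 was higher in DHEA on day 7 (9.69, 9.89 and 10.05 against 7.93 to 8.34; 1.69 ± 0.20, adjusted p = 2.51e-13) and on day 14 (1.55 ± 0.24), in MDA on day 14 (1.35 ± 0.24) and in Wy on day 3 (1.20 ± 0.20), and it was lower in NNM on day 7 (-0.89 ± 0.20). None of the 4 SLC8 and 3 SLC9 genes was called in any group. Slc16a1, which carries lactate and ketone bodies, was higher in Wy on day 1 (11.89, 12.12 and 11.64 against 11.09, 10.95 and 11.09; 0.84 ± 0.14) and lower in CPA on day 3 (-0.75 ± 0.14). Slc16a6 was called higher in 10 groups of 8 compounds, up to 0.88 ± 0.15 in CPA on day 1. Slc33a1, the acetyl-CoA carrier of the endoplasmic reticulum, fell in ETH on day 1 (8.10, 7.94 and 7.93 against 9.13 to 10.00, change -1.62 ± 0.10, adjusted p = 7.33e-42) and on day 3 (-1.27 ± 0.10) and was called in no compound other than ETH. Slc35e3 was called higher in 12 groups and lower in none, with 0.92 ± 0.11 in PBO on day 3 and 0.91 ± 0.12 in Aap at 48 hours.

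Change over time. The last time point minus the first was tested for each compound as a difference of the 2 changes. In Aap 42 of the 209 carriers passed, and 1377 of all 8861 genes (15.5%) did. In ETH 19 of the 209 carriers passed, near the share of all genes (796 of 8861, 8.98%). The change of Slc27a5 in ETH differed by -1.64 ± 0.35 between day 14 and day 1 (adjusted p = 8.5e-05), and the rise of Slc5a1 in DES grew by 1.12 ± 0.14 from day 1 to day 3 (adjusted p = 1.86e-10). For Slc30a1 in Nif, Slc6a6 in PBO and Slc22a5 in Wy the difference between the last and the first time was -0.08 ± 0.28, -0.39 ± 0.51 and 0.01 ± 0.18, none of which passed.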

How the data were processed

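The authors converted the array images with MAS 5.0 and normalised them with RMA (affy; version not given in the sources used here), and deposited log2 expression values, 1 column per array. Scanner files were not used here. Of 15866 probe sets, 12783 had 1 gene symbol, 312 several and 2771 none in the platform annotation, and those with 1 were used for naming. Array medians lay between 7.38 and 7.49, and the number of arrays limits the precision. Samples were grouped by the labels. For every treated group the difference from the vehicle group in its label was tested with limma 3.58.1 in R 4.3.3 (1 mean per group over all arrays, 285 residual degrees of freedom), with Benjamini-Hochberg adjustment over all probe sets within a comparison. Calls required a fold of 1.5 or more together with an adjusted p under 0.05, and all such p-values come from this fit across all probe sets. Genes were named as the 20 called in the most groups, as the largest rise and fall of each compound at its last time point without overlap of arrays, as the most often called of each subfamily with at least 3 genes, or as further members of a role, the last chosen with their values known. The members and lists were chosen with earlier results of these data known. The highest correlation between any 2 arrays was 0.99765, so no array was counted as a repeat. The code was tested on simulated data. Figures were drawn with matplotlib 3.10.9.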

Additional observations from a re-analysis of the deposited data

Results flagged for a closer look

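In vehicle groups of 4 or 6 animals, 6 of 120 tests for a single animal lying apart (Dixon's test, the 20 carriers called most often in 6 groups) passed, and chance gives about 1 in 20. In CMC_1F_14d replicate 1 measured 7.987 for Slc16a10, where the nearest animal had 7.651. In CMC_1F_7d replicate 4 measured 8.007 for Slc4a4 (nearest 8.279), and replicate 3 measured 9.007 for Slc34a2 (nearest 8.771) and 11.472 for Slc37a4 (nearest 11.346). In CMC_1H_3d, the vehicle of ETH, DES and PBO on day 3, replicate 4 measured 8.105 for Slc35e3 (nearest 7.852) and replicate 1 measured 11.345 for Slc6a13 (nearest 11.135).

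For each compound with a called carrier at its last time point, the change of the carrier with the largest change there was compared between the last and the first time point, and 4 of 24 differences passed in limma. Since the carrier was picked at the last time, a larger change there was favoured by that choice. Slc46a1 in CIDB differed by -0.97 ± 0.25 between day 7 and day 3 (adjusted p = 0.0271). Slc5a1 in DES differed by 1.122 ± 0.14 between day 3 and day 1 (adjusted p = 1.86e-10). Slc27a5 in ETH differed by -1.644 ± 0.35 between day 14 and day 1 (adjusted p = 8.5e-05). Slc4a4 in MDA differed by 1.291 ± 0.33 between day 14 and day 1 (adjusted p = 0.0341), from 0.06 to 1.35.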

How the results depend on the processing

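With the settings used, 246 pairs were higher, 365 lower and 95 carriers called at least once. Without the fold threshold these counts were 738, 1069 and 202, and with at least 2-fold 81, 129 and 54. Leaving out 1 replicate at a time gave 229 to 258 higher, 347 to 390 lower and 93 to 100 carriers. With all probe sets of a gene the counts were 311, 452 and 113. The remaining alternatives (fits of the compared groups alone, quantile normalisation, other adjustments, level limits of 5 and 7, a trended robust prior, the platform's own symbols, arrays with other tissue left out) stayed within 1.5 times of each count. Fits of the compared groups alone lost 79 of the 611 calls, and quantile normalisation lost 30. With the former, 4 of the 10 calls of Slc6a13, 16 of the 23 of Slc27a5 and 8 of the 13 of Slc30a1 were kept. For single named changes, 60 values over the settings lost their call and none reversed. Of the counts of calls per role or per gene, 78 moved by more than 1.5 times. The other 1734 counts and values stayed within 1.5 times or kept their call. The replicate number as a block gave 236, 365 and 93. Numbers paired the samples in 4 of 98 comparisons by the correlation of deviations (mean r over 293 pairs 0.0131), and there the block changed ETH on day 1 from 7 to 5 higher and Mcarb on day 14 from 1 to 2 lower. Background correction and slide could not be varied without scanner files.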

Other observations

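Vehicle animals alone differed between groups in some carriers. Over the 38 vehicle groups the range of group means had a median of 0.392 over the 209 carriers, and it exceeded 1 in 13. In 11 of these 13 the saline group at 12 hours was the lowest or the highest group, as it was for 56 of the 209. The range was widest for Slc6a6, from 6.65 in saline at 12 hours to 9.94 in CMC_1H_7d. Slc38a2 had a mean of 9.21 in saline at 12 hours, with a median of 7.53 over vehicle groups, Slc25a25 had 10.1 with a median of 8.86, and Slc16a1 had 10.1 with a median of 11.1. Slc25a30 (8.88 to 10.7) and Slc30a1 (7.13 to 8.36) also had a range above 1, without the saline group at either end. The time of day at which livers were taken was not tested, and the saline group at 12 hours is the vehicle of Aap at 12 hours alone.

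Other probe sets of the same gene did not always give the same number of calls. Chosen after the values were seen, another probe set of Slc31a1, a copper importer, was called in 17 groups where the first was called in 1, and that of Slc16a12 in 13 against 4, with 1 group shared. No further probe set was called in the opposite direction in the same group.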
